A study of Mus musculus with 16 samples.

Results

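Short-term hematopoietic stem cells (ST-HSC) were compared with common myeloid progenitors (CMP), the first myeloid step after the stem cell compartment, on 6 one-colour Agilent mouse microRNA (miR) arrays out of the 16 in the series. The members were taken from the sample titles: ST-HSC 1, 2 and 3 and CMP 1, 2 and 3, each array hybridised with total RNA of cells sorted from pooled bone marrow of young adult female C57Bl/6 mice, with no treatment or transgene on either side. ST-HSC were sorted as lineage-negative, c-kit+, Sca1+, CD34+, FLT3- cells and CMP as lineage-negative, c-kit+, Sca1- cells with intermediate CD34 and Fc gamma receptor, and the study isolated HSC subsets and myeloid progenitors in separate sorts. The other 10 arrays held long-term HSC (LT-HSC, 1 array) and, with 3 arrays each, multipotent progenitors (MPP) and the GMP and MEP stages, which follow CMP toward granulocytes and monocytes (GMP) or megakaryocytes and red cells (MEP). Replicates were separate pools of mice. P-values for differences over the 6 arrays measure a spread that mixes pools, arrays and, where a population lay on more than 1 slide, slides.

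The slides decide how each difference can be read. ST-HSC 1 and CMP 3 lay together on slide 2, ST-HSC 2 and 3 on slide 3, and CMP 1 and 2 on slide 1, which was read on another scanner model with another version of Feature Extraction, the scanner's spot software. Off slide 2, slide and population cannot be told apart, so every difference below is given over the 6 arrays and again within slide 2, 1 array against 1.

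MiRs are short RNAs cut from hairpins that guide silencing complexes to messenger RNAs, mainly through the seed, bases 2 to 8 of the mature strand. One hairpin yields a guide arm and an often scarcer passenger arm, which array names of this age mark with an asterisk. Neighbouring hairpins are often cut from 1 primary transcript. ST-HSC can still give rise to every blood lineage for a limited time, whereas CMP have lost lymphoid potential and divide toward the granulocyte, monocyte, megakaryocyte and red cell branches.

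The mature sequences of the miRs on which the comparison turned are shown first, 5′ to 3′, from RefSeq on build GRCm38.p6 with the seed in capitals. Of the 42 miRs called below, 32 could be matched to a RefSeq mature sequence. The first set was higher in ST-HSC and comes from related clusters, so that miR-99a shares its seed with miR-99b and miR-125a-5p shares its seed with miR-125b-5p.
miR-99b: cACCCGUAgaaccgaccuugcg
miR-99a: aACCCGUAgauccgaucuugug
let-7e: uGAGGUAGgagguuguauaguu
miR-125a-5p: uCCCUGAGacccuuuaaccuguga
miR-125b-5p: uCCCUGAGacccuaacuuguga
These 2 were also higher in ST-HSC, and share their seed with no other of the 167 tested miRs that had a matched sequence.
miR-203: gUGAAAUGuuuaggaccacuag
miR-224: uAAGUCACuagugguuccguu
The next set holds the 6 tested miRs with the miR-17 seed and miR-18a, whose seed differs from it by 1 base. All of them lay lower in ST-HSC, to very different degrees.
miR-17: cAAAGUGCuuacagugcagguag
miR-20a: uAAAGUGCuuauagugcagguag
miR-20b: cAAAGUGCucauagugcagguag
miR-106a: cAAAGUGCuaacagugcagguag
miR-106b: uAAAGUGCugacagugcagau
miR-93: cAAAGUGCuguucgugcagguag
miR-18a: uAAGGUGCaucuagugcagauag
The last set was lower in ST-HSC and comes from 2 loci, that of miR-181a-1 with miR-181b and that of miR-191 with miR-425. MiR-181d, from another locus, has the seed of miR-181b.
miR-181b: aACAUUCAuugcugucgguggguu
miR-181d: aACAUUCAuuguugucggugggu
miR-181a-1*: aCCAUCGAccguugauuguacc
miR-191*: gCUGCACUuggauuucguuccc
miR-425: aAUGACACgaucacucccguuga

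MiR-99b, let-7e and miR-125a-5p lie within 647 bases of each other on chromosome 17, with miR-99b at chr17:17830194-17830215, let-7e at chr17:17830366-17830387 and miR-125a-5p at chr17:17830817-17830840, all on the plus strand. MiR-99a (chr16:77598940-77598961) and 1 of the 2 copies of miR-125b-5p (chr16:77646279-77646300) lie 47361 bases apart end to end on chromosome 16, also on the plus strand. MiR-181a-1* (chr1:137966508-137966529) and 1 of the 2 copies of miR-181b (chr1:137966650-137966673) are plus-strand neighbours, as are miR-191* (chr9:108568367-108568388) and miR-425 (chr9:108568789-108568811). The array cannot tell the copies of a duplicated miR apart.

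Values are background-subtracted intensities that were quantile-normalized over the 16 arrays, raised to a floor of 3.07 units and put on the log2 scale, with 1 value per miR, so a difference of 1 is a doubling. In bulk RNA of sorted cells, fewer cells with a miR and less of it per cell cannot be told apart. The summed signal before normalization ran from 66237 units (CMP 3) to 279737 (CMP 2) over the 6 arrays. Negative control spots reached a 95th percentile of 30.6 and 44.3 units on CMP 1 and 2, against 1.77 to 2.97 units on the other 4 arrays. Correlations of the tested miRs were 0.989 and 0.992 for the 2 pairs of arrays that shared population and slide, and 0.902 to 0.954 for 4 pairs that shared population but not slide. The single ST-HSC and CMP pair on 1 slide gave 0.967, higher than arrays of the same population on different slides. A miR was called well above background (detected) on an array where at least a share of 0.5 of its probe's spots was flagged so by Feature Extraction.

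Over the 6 arrays, 19 miRs were higher and 23 lower in ST-HSC than in CMP, and among those called both over the 6 arrays and within slide 2 were the miR-99, miR-125 and let-7e group on the ST-HSC side and miR-181b, miR-181a-1*, miR-191*, miR-425 and miR-18a on the CMP side. These 42 were called among 237 tested miRs, or 17.7% (limma with all 16 arrays in the fit, two-sided, Benjamini-Hochberg adjusted p under 0.05), and 8.02% were called as higher and 9.7% as lower. For 38 of the 42, all 3 arrays of one population lay beyond all 3 of the other, as they did for 30.4% of all tested miRs. The split between directions moved with the scaling: with each array scaled to the 75th percentile of the probes detected on all arrays, 34 were higher and 14 lower, and in the authors' deposited values 24 were higher and 17 lower. Without any normalization between arrays limma called 0 (43 at an unadjusted p under 0.05), with the sign kept for all 42. Leaving out 1 array gave from 11 calls (without ST-HSC 3) to 96 (without ST-HSC 1), with 17, 17, 16 and 43 without ST-HSC 2, CMP 1, CMP 2 and CMP 3, and 11 of the 42 were called in all 6 of these fits. The median difference over all tested miRs was -0.05 as normalized here, 0.29 and -0.19 with the 75th percentile of those probes or of all probes, and -0.43 without normalization.

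**Figure D1:**
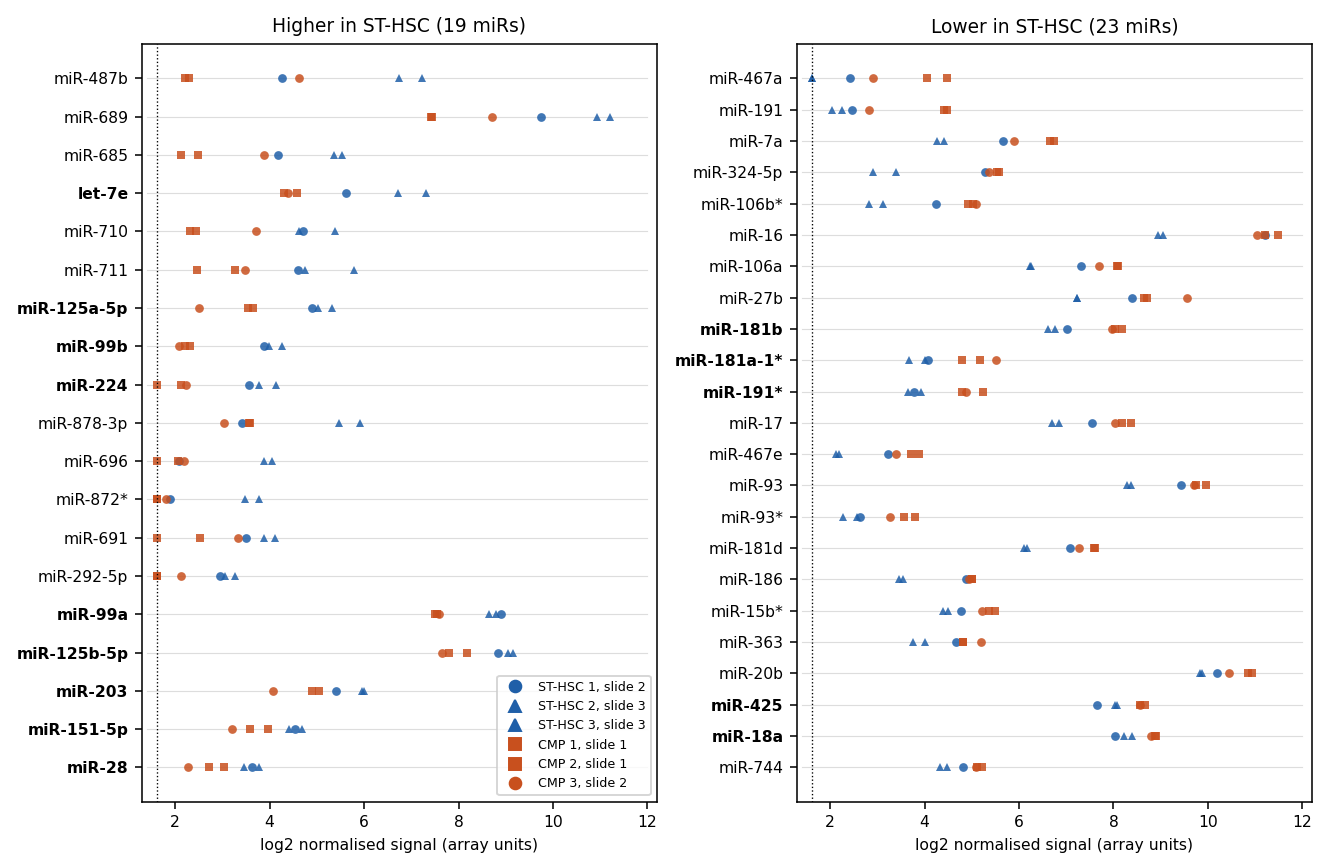
Log2 normalised signal (x axis, array units) of the 42 called miRs on each of the 6 arrays, with blue for ST-HSC and orange for CMP, squares for slide 1, circles for slide 2 and triangles for slide 3. Names in bold are the 14 miRs that also passed within slide 2 and in the blocked fit, and the dotted line is the floor at 1.62. For bold names the 2 circles stand apart, while for miR-16 and miR-324-5p they nearly meet and the triangles stand alone.

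Within slide 2, 39 of the 42 differences had the sign of the 6-array difference and 3 had the opposite sign (miR-487b, miR-696 and miR-16), but 21 of the 42 came to less than a share of 0.5 of it. In limma with ST-HSC 1 set against CMP 3, each assumed to vary like the arrays that share population and slide elsewhere in the series, 40 miRs (16.9%) passed, of which 16 were among the 42. With slide as a block in the 16-array fit, where the ST-HSC level again rests on ST-HSC 1, 30 (12.7%) passed, and 14 of these were among the 42. With slide as a random block (estimated correlation 0.791), 25 (10.5%) passed, 16 of them among the 42. The same 14 miRs, 9 higher and 5 lower in ST-HSC, were called over the 6 arrays, with the fixed block and within slide 2, which is 5.91% of those tested. The 3 fits share arrays and are not independent of each other. Of the 14, 8 were also called in every fit that left out 1 of the 6 arrays, namely let-7e, miR-125a-5p, miR-99b, miR-224, miR-99a, miR-191*, miR-181a-1* and miR-181b.

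**Figure D2:**
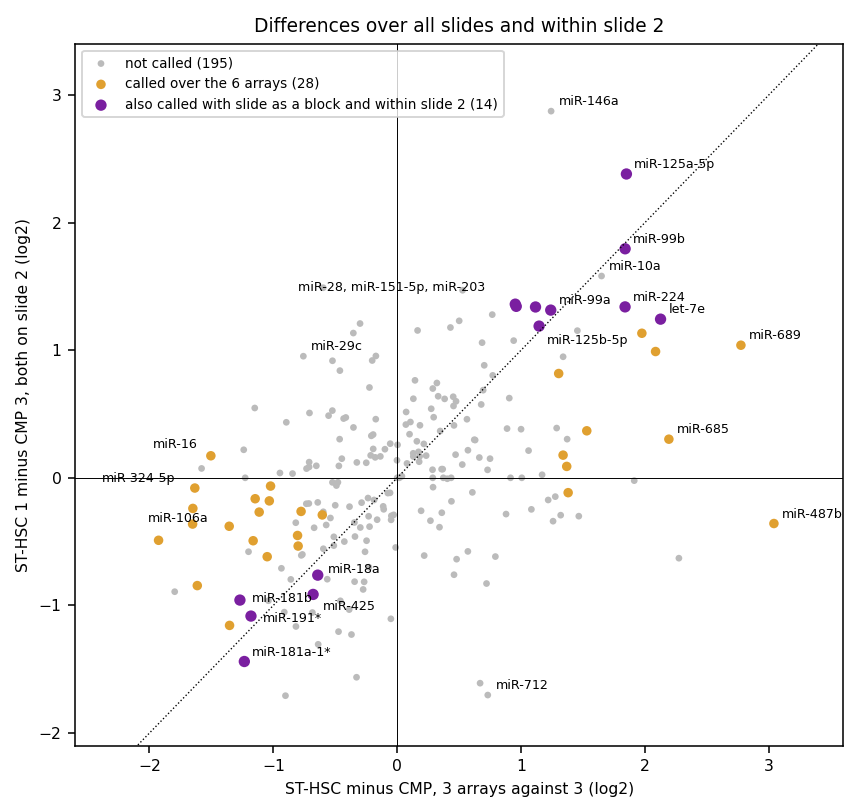
Each point is 1 of 237 miRs, with the difference between 3 ST-HSC and 3 CMP arrays on the x axis and the difference between ST-HSC 1 and CMP 3 on slide 2 on the y axis (both log2). The 14 miRs called in the 3 fits lie on the same side of 0 on both axes. Their distance from the dotted line of equal differences varies, with let-7e at 2.13 against 1.24 and miR-125a-5p at 1.85 against 2.38. Of the 42 called miRs, 21 come to less than a share of 0.5 of their difference on the y axis. MiR-146a reaches 2.87 within the slide without being called over the 6 arrays.

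Of 7 members of the list of stem-cell-associated clusters, 5 were called, all as higher in ST-HSC, against 8.02% called as higher among all tested miRs, and all 5 were among the 14 called in the 3 fits, against 5.91% of all. The list held miR-99a, miR-99b, miR-100, miR-125a-5p, miR-125b-5p, let-7e and let-7c, had a median difference of 1.24 (1.24 within slide 2) and can be read against medians of -0.05 and 0.03 over all tested miRs. These medians include miRs that were not detected on CMP arrays, whose measured differences are not exact. The list was chosen with earlier results of these data known, so its counts and medians are a description. MiR-99b, let-7e and miR-125a-5p also share a locus. MiR-125a and miR-125b are known to enlarge the stem cell pool and to dampen pro-apoptotic genes when raised in bone marrow.

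MiR-99a, with the seed of miR-99b, measured 8.90, 8.65 and 8.80 (log2) on ST-HSC 1, 2 and 3 and 7.55, 7.50 and 7.58 on CMP 1, 2 and 3. The populations did not overlap, and the arrays of each lay close together across slides. The difference was 1.24 ± 0.24 (SE; limma adjusted p = 0.00496), a 2.36-fold higher level in ST-HSC, and 1.31 within slide 2. MiR-125b-5p measured 8.83, 9.06 and 9.16 in ST-HSC and 8.17, 7.80 and 7.65 in CMP. It was detected on all 6 arrays, again without overlap, and the difference was 1.15 ± 0.27 (SE; adjusted p = 0.0144 in limma), with 1.19 within slide 2. With single arrays left out it passed the threshold 3 times of 6, with a largest adjusted p of 0.0739 without ST-HSC 3.

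Let-7e, the member of the let-7 family with its own place beside miR-99b and miR-125a, measured 5.63, 6.72 and 7.31 in ST-HSC and 4.31, 4.58 and 4.38 in CMP. ST-HSC arrays varied far more than CMP arrays, and ST-HSC 1 on slide 2 was the lowest of them. The difference was 2.13 ± 0.38 (SE; limma adjusted p = 0.0028), and 1.24 within slide 2. The miR was detected on 3 ST-HSC arrays and 1 CMP array, CMP 1, so the difference within slide 2 is against a CMP array that did not detect it.

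MiR-125a-5p and miR-99b were detected on all 3 ST-HSC arrays and on no CMP array. MiR-125a-5p measured 4.89, 5.03 and 5.33 in ST-HSC and 3.64, 3.54 and 2.51 in CMP, which put it at least 1.72-fold higher in ST-HSC (limma adjusted p = 0.000804). It also passed within slide 2 (adjusted p = 0.000625 there), where CMP 3 again gives only a bound. MiR-99b measured 3.88, 3.99 and 4.27 against 2.32, 2.22 and 2.09, without overlap (limma adjusted p = 1.17e-05). No fold is given for miR-99b, since its mean in ST-HSC (4.05) did not exceed the mean of the lowest signals detected on the CMP arrays, which ran from 4.05 to 4.65 on the log2 scale. Thus all 3 hairpins of the chromosome 17 cluster were on the same side, as were miR-99a and miR-125b-5p.

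The other 2 members did not follow. MiR-100, the third carrier of a miR-99 type sequence, measured 5.86, 4.43 and 4.52 in ST-HSC and 5.62, 5.56 and 5.02 in CMP (difference -0.46, limma adjusted p = 0.454), but ran the other way within slide 2 (0.84, adjusted p = 0.0259 there). Let-7c, the let-7 copy hosted beside miR-99a, measured 8.80, 10.42 and 10.84 against 9.75, 9.91 and 8.51, with overlap (0.63, adjusted p = 0.414 in limma).

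Outside the lists, miR-224, miR-151-5p and miR-28 were higher in ST-HSC in the 3 fits, as was miR-203. The first 3 are named here after their values were seen. MiR-203, best known as a brake on stemness in the epidermis, measured 5.41, 5.95 and 6.01 in ST-HSC and 4.89, 5.06 and 4.07 in CMP, where it was detected on 2 of 3 arrays. The difference was 1.12 ± 0.32 (SE; limma adjusted p = 0.0272), with 1.34 within slide 2, where CMP 3 did not detect it, and without ST-HSC 2 the adjusted p rose to 0.12. MiR-224, hosted by the Gabre gene on the X chromosome, measured 3.57, 3.78 and 4.14 against 2.12, 1.62 and 2.23. It was detected on 2 ST-HSC arrays and no CMP array, so no fold is given for it (limma adjusted p = 6.12e-05). MiR-151-5p was detected on all ST-HSC arrays and on no CMP array, at 4.54, 4.42 and 4.68 against 3.96, 3.6 and 3.20, and was at least 1.18-fold higher (adjusted p = 0.0144 in limma). MiR-28, from an intron of Lpp, measured 3.62, 3.46 and 3.78 against 3.02, 2.72 and 2.26 and was detected on 2 ST-HSC arrays (adjusted p = 0.0216 in limma), which allows no fold.

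The largest differences on the ST-HSC side were not the most stable ones. MiR-689 measured 9.75, 11.21 and 10.93 in ST-HSC and 7.42, 7.44 and 8.71 in CMP (2.77 ± 0.72, SE; limma adjusted p = 0.0216). Without overlap it was 6.84-fold higher, but within slide 2 the difference was 1.04 (adjusted p = 0.191), and the slide 1 arrays of GMP also read 3.13 below the slide 2 array. MiR-685, at 4.19, 5.37 and 5.53 against 2.49, 2.13 and 3.88, was at least 1.65-fold higher over the 6 arrays (limma adjusted p = 0.0216) and did not pass within slide 2 (adjusted p = 0.658 there). MiR-710 and miR-711 were at least 1.52-fold and 1.67-fold higher (adjusted p = 0.0272 and 0.0304 in limma), and neither passed within slide 2 (adjusted p = 0.287 and 0.323 there). MiR-710 read 2.43 and miR-711 2.15 lower on the slide 1 GMP arrays than on the slide 2 one. In MEP, slide 1 minus slide 2 came to -0.23 for miR-689, 0.06 for miR-710 and 0.72 for miR-711. For miR-685 it came to -1.76 in GMP and -0.98 in MEP. MiR-487b, from the imprinted Dlk1-Dio3 locus, is named after its values were seen: it measured 4.27, 7.24 and 6.74 in ST-HSC and 2.28, 2.21 and 4.63 in CMP, so that the 2 arrays of slide 2 overlapped the other way (-0.36). Slide 1 minus slide 2 for miR-487b was -1.64 in GMP and -1.33 in MEP. The part of slide in these 5 differences was not tested beyond these values. The other 5 miRs called as higher (miR-878-3p, miR-696, miR-872*, miR-691 and miR-292-5p, named after their values were seen) were detected on 1 or 2 ST-HSC arrays and no CMP array, and none passed within slide 2.

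On the CMP side, miR-181b and miR-181a-1*, the passenger arm of the neighbouring hairpin, were lower in ST-HSC in the 3 fits and in each fit that left out an array. The miR-181 family is best known for shaping lymphoid development and T cell receptor sensitivity. MiR-181b measured 7.01, 6.62 and 6.76 in ST-HSC and 8.19, 8.04 and 7.97 in CMP. All arrays detected it and none overlapped, and it was 2.41-fold lower in ST-HSC (-1.27 ± 0.23, SE; limma adjusted p = 0.0028, with -0.96 within slide 2). MiR-181a-1* measured 4.07, 3.68 and 4.02 against 5.17, 4.79 and 5.51, a difference of -1.23 ± 0.20 (SE; adjusted p = 0.00181 in limma) with -1.44 within slide 2. MiR-181d was called too (-1.03, limma adjusted p = 0.0272), although its slide 2 arrays differed by only -0.18. MiR-181a and miR-181c were not called (-0.73 and -0.65, limma adjusted p = 0.128 and 0.149). Of the 4 family members tested, 2 were thus called as lower and none as higher, with a median difference of -0.88, which shrank to -0.19 within slide 2.

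MiR-191* and miR-425 come from 1 short stretch of chromosome 9 inside the Dalrd3 gene and were both lower in ST-HSC. MiR-425 is named after its values were seen. MiR-425 measured 7.65, 8.08 and 8.04 in ST-HSC and 8.68, 8.56 and 8.56 in CMP (-0.68 ± 0.19, SE; limma adjusted p = 0.0272), a 1.6-fold difference that came to -0.91 within slide 2. MiR-191* measured 3.79, 3.64 and 3.92 against 4.79, 5.23 and 4.87 and was detected on 2 ST-HSC and 3 CMP arrays. The difference was -1.18 ± 0.18 (SE; adjusted p = 0.000979 in limma), with -1.08 within slide 2. ST-HSC 1 did not detect miR-191*, so the difference within slide 2 is not exact. The guide arm miR-191, also named after its values were seen, was called as well (adjusted p = 0.0267 in limma) but was detected on only 1 of the 6 arrays, a CMP one, at values of 2.46, 2.25 and 2.04 against 4.41, 4.47 and 2.83. The passenger arm of miR-425 did not enter the test.

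MiRs with the seed of miR-17, spread over the miR-17, miR-106a and miR-106b clusters and known to promote proliferation and survival, leaned to the CMP side. Of 6 tested, 4 were called as lower in ST-HSC and none as higher, against 9.7% called as lower among all miRs. The median difference was -0.95, but only -0.27 within slide 2, where none of the 6 passed and 5 of 6 were below 0. MiR-106a led with 7.31, 6.23 and 6.26 in ST-HSC and 8.10, 8.08 and 7.69 in CMP (-1.36 ± 0.27, SE; limma adjusted p = 0.00496, with -0.38 within slide 2). MiR-17 measured 7.55, 6.70 and 6.84 against 8.37, 8.17 and 8.04 (-1.16 ± 0.24, SE; adjusted p = 0.00641 in limma, with -0.49 within slide 2). In both cases the ST-HSC arrays of slide 3 were the lowest, and ST-HSC 1 lay between them and the CMP arrays. MiR-93 (-1.11, limma adjusted p = 0.0144) and miR-20b (-0.78, adjusted p = 0.0218) came to -0.27 and -0.26 within slide 2. MiR-20a just missed the threshold (-0.71, limma adjusted p = 0.0509) and stood at 0.08 within slide 2, and miR-106b was not called (-0.11, adjusted p = 0.65).

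MiR-18a, in the same cluster as miR-17 but with its own seed, was the one cluster member called in the 3 fits. It measured 8.04, 8.40 and 8.22 in ST-HSC and 8.90, 8.88 and 8.80 in CMP, with every ST-HSC array below every CMP array. The difference was modest, -0.64 ± 0.17 (SE; limma adjusted p = 0.0216), that is 1.56-fold, and -0.76 within slide 2. With single arrays left out it was called 3 times of 6, with a largest adjusted p of 0.0853 without CMP 2. Beside miR-20a, the rest of the miR-17 cluster was not called: miR-19a (-0.27, limma adjusted p = 0.343), miR-19b (-0.34, adjusted p = 0.394) and miR-92a (-0.05, adjusted p = 0.882). MiR-19a did pass within slide 2, at -0.87 (adjusted p = 0.0047 there). MiR-363 of the miR-106a cluster was called as lower (-0.80, limma adjusted p = 0.0338, with -0.53 within slide 2) and miR-25 was not (-0.11, adjusted p = 0.728). By cluster, 2 of 6 members of the miR-17 cluster, 3 of 3 tested of the miR-106a cluster and 1 of 3 of the miR-106b cluster were called, all as lower, against 9.7% called as lower among all tested miRs. Of these 6 calls, only that of miR-18a also passed within slide 2. MiR-17 and miR-106a, of different clusters, differ by 1 base, and whether the probes tell such close sequences apart was not tested. MiR-18b of the miR-106a cluster did not pass the detection filter.

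A pair of passenger arms of the miR-106b cluster also lay on the CMP side. MiR-106b* measured 4.24, 2.83 and 3.12 in ST-HSC, where 1 array detected it, and 4.92, 5.02 and 5.09 in CMP, where 3 did (limma adjusted p = 0.00496). Within slide 2 it differed by -0.84 and passed (adjusted p = 0.0284 there), while its guide arm miR-106b was not called. MiR-93*, named after its values were seen, was called but not detected on any of the 6 arrays, so it has no fold.

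Among the other miRs lower in ST-HSC, miR-27b, cut with miR-23b and miR-24-1 from 1 transcript, measured 8.40, 7.22 and 7.24 against 8.65, 8.71 and 9.55 (-1.35 ± 0.31, SE; limma adjusted p = 0.0137). It passed within slide 2 (-1.16, adjusted p = 0.00306 there) while the blocked fit gave -0.80 (adjusted p = 0.0702). Its cluster partners miR-23b and miR-24 and its paralog miR-27a were not called (-0.01, -0.21 and -0.16). MiR-7a measured 5.65, 4.26 and 4.42 against 6.65, 6.74 and 5.89 (-1.65 ± 0.35, SE; adjusted p = 0.00802 in limma), with -0.24 within slide 2. MiR-324-5p measured 5.29, 2.91 and 3.39 against 5.54, 5.58 and 5.37 (limma adjusted p = 0.0247), so the 2 arrays of slide 2 nearly met (-0.08) and those of slide 3 alone were low. MiR-16, named after its values were seen, behaved likewise at 11.21, 8.95 and 9.06 against 11.49, 11.21 and 11.03 (-1.50, limma adjusted p = 0.0375), with 0.17 within slide 2. MiR-467a, miR-467e, miR-186, miR-15b* and miR-744, named after their values were seen, complete the miRs called as lower, and none passed within slide 2. For miR-7a, miR-324-5p and miR-16, whether slide 3 or the population sets the low ST-HSC values was not tested.

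**Figure D3:**
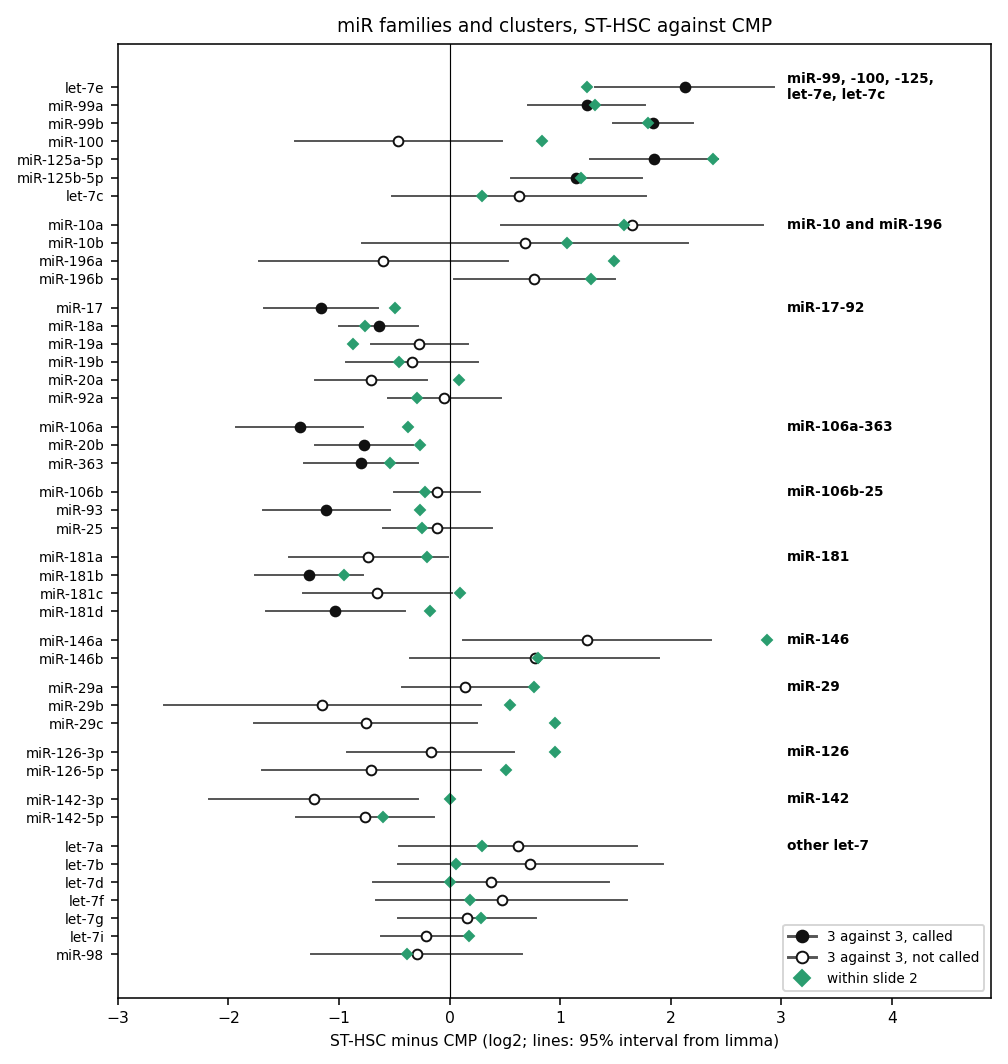
Difference between ST-HSC and CMP (x axis, log2) for members of 11 families and clusters, with circles for 3 arrays against 3 (filled where called), lines for the 95% interval from limma and green diamonds for the difference within slide 2. In the top group the diamonds of the 5 called members lie at 1.19 to 2.38, while in the miR-17 type clusters they lie nearer 0 than the filled circles for every called member but miR-18a.

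The remaining families gave few or no calls over the 6 arrays. None of 4 tested miRs of the Hox clusters was called, though miR-10a, which lies in the Hoxb cluster, just missed: it measured 8.37, 9.66 and 9.75 in ST-HSC and 7.95, 8.10 and 6.79 in CMP (1.65 ± 0.55, SE; limma adjusted p = 0.0525) and passed within slide 2 (1.58, adjusted p = 0.00945 there). MiR-196b of the Hoxa cluster showed the same order without overlap, at 8.0, 8.19 and 8.28 against 7.80, 7.65 and 6.72 (0.77, adjusted p = 0.115 in limma, with 1.28 and adjusted p = 0.0205 within slide 2). In the authors' deposited values miR-10a was called, at 1.52.

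Some families read differently on slide 3 than on slide 2. MiR-146a, a brake on NF-kappaB signalling, measured 7.69, 5.13 and 6.03 in ST-HSC against 5.21, 5.08 and 4.82 in CMP, so that 1 of the ST-HSC arrays fell inside the CMP range (1.24, limma adjusted p = 0.107). Within slide 2 it gave the largest of all positive differences, 2.87 (adjusted p = 0.00306 there). MiR-29c measured 8.17, 6.03 and 6.10 against 7.66, 7.69 and 7.22 and turned sign, from -0.76 (limma adjusted p = 0.254) to 0.95 within slide 2 (adjusted p = 0.0047 there). MiR-126-3p, which maintains stem cell quiescence, did likewise at 8.08, 6.65 and 6.86 against 7.58, 7.40 and 7.12 (-0.17, limma adjusted p = 0.724, with 0.95 and adjusted p = 0.0448 within slide 2). Both arms of miR-142, made in all blood cells, were below 0 but not called (miR-142-3p -1.23, limma adjusted p = 0.0642; miR-142-5p -0.77, adjusted p = 0.0843). In miR-146a, miR-29c and miR-126-3p ST-HSC 1 lay above ST-HSC 2 and 3 by more than any CMP arrays differed.

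None of 7 let-7 family members other than let-7e and let-7c was called, with a median difference of 0.37 and 0.18 within slide 2. No call was made for the 5 miR-30, 4 miR-130 and miR-301, 3 miR-148 and miR-152, 2 miR-26 or 2 miR-221 and miR-222 members. Nor was any made among miR-150, miR-155, miR-128 and miR-342-3p, miRs of lymphoid cells. The closest of these was miR-128, at 5.0, 5.85 and 5.95 in ST-HSC and 7.02, 6.46 and 6.05 in CMP (-0.91, limma adjusted p = 0.104), without overlap. Of 6 tested members of the miR-15 and miR-16 family, miR-16 was the one called.

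MiRs of other cell types were read on the same arrays. Of miRs of muscle, liver and stromal or endothelial cells, 4, 1 and 4 were on the array and none was detected on any of the 6. MiR-203 was the one of 7 epithelial miRs detected, and the other 6, the miR-200 family and miR-205 among them, were detected on none of the 6 arrays. MiR-124, a neuronal miR, was not detected in ST-HSC (1.62, 2.05 and 1.95) but was on 2 CMP arrays (5.10, 3.84 and 4.25), and miR-9 was detected on 1 CMP array, and neither passed the detection filter over the series. No red cell miR was called: miR-451 measured 8.10, 6.26 and 7.95 in ST-HSC and 7.83, 6.26 and 6.63 in CMP (0.53, limma adjusted p = 0.54), miR-144 was detected on 1 ST-HSC array and miR-486 on 1 CMP array. MiR-223, abundant in granulocytes and their precursors, was detected on every array at 11.79, 12.07 and 11.79 in ST-HSC and 12.70, 12.88 and 12.39 in CMP (-0.77, limma adjusted p = 0.203), without overlap. The part of such cells in the differences above was not tested.

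The levels of the 14 miRs in the other 4 populations are given as a description, since these were chosen for their difference between ST-HSC and CMP. MiR-99a and miR-125b-5p were lower still in GMP and MEP than in CMP. MiR-99a averaged 8.78 in ST-HSC, 9.16 in MPP, 7.54 in CMP, 6.40 in GMP and 3.72 in MEP. MiR-125b-5p averaged 9.02, 9.54, 7.87, 6.70 and 4.55 in the same order. The LT-HSC array read 8.47 for miR-99a and 9.55 for miR-125b-5p. MiR-125a-5p and miR-99b were detected on all 3 MPP arrays and on no GMP or MEP array. MiR-151-5p took another course, since it averaged 4.55 in ST-HSC and 5.57 in MPP but 4.30 in MEP, where 3 arrays detected it, above the 3.59 of CMP. MiR-18a averaged 8.86 in CMP, 9.45 in GMP and 9.62 in MEP, while miR-181b had its highest mean in CMP at 8.06, with 7.82 in GMP and 5.14 in MEP. MiR-191* and miR-425 were as high in GMP (5.02 and 8.62) as in CMP (4.96 and 8.60) and lower in MEP (3.61 and 7.72). These are means of 3 arrays, and neighbouring steps were not tested.

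**Figure D4:**
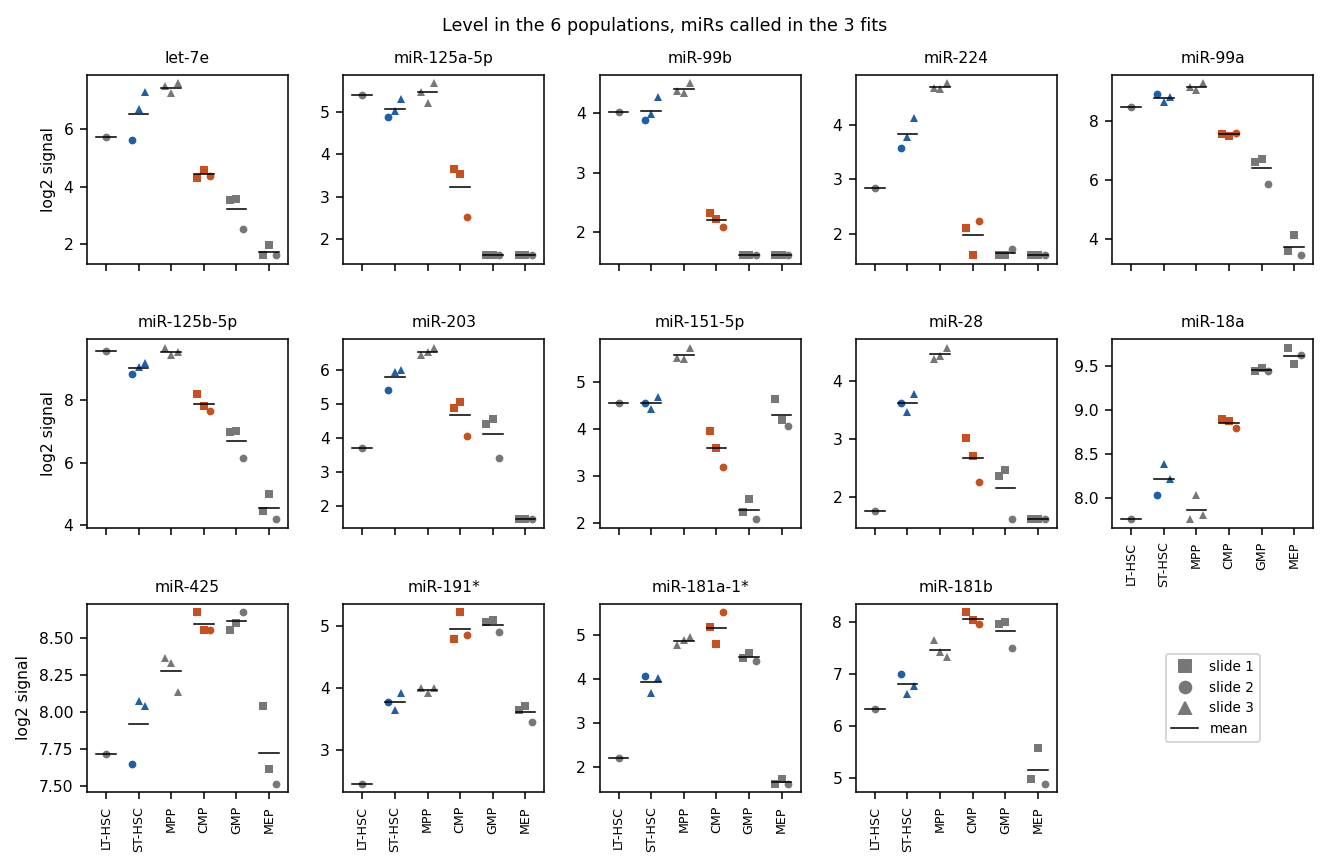
Log2 normalised signal (y axis, scaled separately in each panel) of the 14 miRs in the 6 populations, 1 point per array with its slide as the symbol and a line at the mean. ST-HSC (blue) and CMP (orange) do not overlap in any panel, and 8 of the 9 miRs higher in ST-HSC have their lowest mean in MEP or share the floor there with GMP, the exception being miR-151-5p.

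The number of miRs detected was also compared. ST-HSC arrays detected 179, 217 and 202 miRs and CMP arrays 168, 145 and 160, so that every ST-HSC array lay above every CMP array. The means were 199.3 ± 19.1 and 157.7 ± 11.7 (SD, n = 3 each), 41.7 apart (exact permutation test over 20 splits, two-sided, p = 0.1, the smallest p that 3 against 3 can give). Within slide 2 the difference was 19. Of 236 miRs detected on any of the 6 arrays, 132 were detected on all 6. A further 11 were detected on all ST-HSC arrays and no CMP array, and none the other way round. Every ST-HSC array also had a lower lowest detected signal than every CMP array. Those 11 included miR-99b, miR-125a-5p, miR-151-5p, miR-685, miR-710 and miR-711 of the called miRs. Negative control spots did not order the counts of detected miRs by their 95th percentile. CMP 1 (30.6 units) detected more miRs than CMP 3 (2.21 units), and CMP 2 (44.3 units) detected fewer. On the log2 scale, the lowest detected signal rose from 2.91 (ST-HSC 2) through 3.29 (ST-HSC 3) to 3.88 (ST-HSC 1). It rose further through 4.05 (CMP 1) and 4.21 (CMP 3) to 4.65 (CMP 2). The counts fell in the same order, from 217 to 145. These signals were read after quantile normalization, which gives every array the same set of values. An array with more detected probes then tends to reach a lower value, so the orders are not independent of each other. Whether the limit of detection set the difference in counts was not tested.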

How the data were processed

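RNA of sorted populations was hybridised to 16 one-colour (Cy3) arrays, grouped by sample title. The authors deposited the scanner's spot intensities, background-subtracted by Feature Extraction 9.5.3.1 (slide 1) or 10.2.1.3 (slides 2 and 3) and not normalized between arrays, and quantile-normalized log2 values, which ranks probes as the unsubtracted median signal does and served as an alternative.

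Control and outlier spots were left out and the spots of a probe averaged. Probe means were quantile-normalized, raised to a floor of 3.07 units (from the 95th percentile of negative control spots, by its median on the 16 arrays) and put on the log2 scale. Probes detected on at least 3 arrays were kept (493 probes, 237 miRs, 2 of them viral), and the brightest stood for its miR. Values at the floor have no order. Of the 42 called miRs, 1 (miR-744) had a probe pointing the other way.

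A mean per population was fitted by limma 3.58.1 (lmFit, eBayes) under R 4.3.3, leaving 10 residual and 3.10 prior degrees of freedom. The comparison within slide 2 had 6 residual degrees of freedom and the fit with slide as a block 8. Where no array of one side was detected, the fold is a bound: the brighter mean is divided by a limit for the dimmer side, taken on each array as its lowest detected signal or, if higher, the probe's own, and averaged. In simulated data with the real residual spread and 237 miRs, the fit recovered 50% of 30 miRs changed by 1 log2 unit (1 of 16 calls was of an unchanged miR) and 80% of 30 changed by 2. The simulated arrays varied independently, with no slide effect, so these values do not carry over to the real slides. Precision is limited by the number of arrays.

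The members, the lists and the naming rule were chosen with earlier results of these data known. The rule named list members and, in each direction, up to 10 called miRs by size of difference, provided that populations did not overlap and the higher side was detected on every array. Alternatives covered normalization, background, floors, filters, probe choice, blocks, an intensity trend, unadjusted p and each array left out. RefSeq sequences were joined through shared names or the spacing of probe coordinates.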

Additional observations from a re-analysis of the deposited data

How the results depend on the processing

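The number of calls came to 19 when only miRs detected on all 6 arrays were tested (132), 27 with no detection filter, 25 with slide as a random block, 3 with the 6 arrays normalized and fitted alone (miR-99b, miR-99a and miR-181b; 47 at an unadjusted p under 0.05), 0 without normalization between arrays (43 at an unadjusted p) and 88 at an unadjusted p under 0.05. Leaving out 1 array gave 11 to 96 calls: 96 without ST-HSC 1, 17 without ST-HSC 2, 11 without ST-HSC 3, 17 without CMP 1, 16 without CMP 2 and 43 without CMP 3. Without ST-HSC 1 no ST-HSC array shares a slide with CMP. With the replicate number as a block 50 were called, 41 of the 42 among them. The titles do not say that the numbers pair the samples, and arrays titled without a number were numbered here. Deviations of same-numbered arrays correlated at -0.18, 0.16 and -0.33. Same-numbered arrays never shared a slide, so these values cannot show whether samples were paired. The difference in detected miRs was 19 within slide 2 and 32.8 to 51.8 with 1 array left out.

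Among miRs called over the 6 arrays or listed by family, signs turned as follows where either fit passed. With slide as a block miR-16 came to 0.24, miR-186 to 0.044, miR-324-5p to 0.0031, miR-696 to -0.17, miR-878-3p to -0.049, miR-126-3p to 1.02 and miR-29c to 1.07. Within slide 2 miR-16 came to 0.17, miR-487b to -0.36, miR-696 to -0.12, miR-100 to 0.84, miR-126-3p to 0.95 and miR-29c to 0.95. MiR-100 also turned with slide as a block (0.94), without passing. Over all tested miRs, 9 passed within slide 2 and 5 with slide as a block with the sign opposite to that over the 6 arrays, 0 of them called there. MiR-712 went furthest below 0, from 0.73 to -1.70 within slide 2 and -1.74 in the block, and miR-671-5p came from 0.67 to -1.61 and miR-423-3p from 0.79 to -0.62 within slide 2. Scaled to the 75th percentile of the probes detected on all arrays, miR-744 came to 0.014. With a floor of 10 units miR-292-5p lay at the floor on all 6 arrays. The cause was not tested.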
